A study of Mus musculus with 2 samples.

Results

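Heat shock chaperones are proteins that keep other proteins folded, and 10 of their genes were followed here across cell types of mouse liver tumors: Hspa1a, Hspa1b, Hspa8, Hsp90aa1, Hsp90ab1, Hsph1, Dnajb1, Hspb1, Hspd1 and Hspe1. They were taken by symbol from a list of 10, of 32285 features counted, and all 10 were found. The genes were selected on their levels and their hKO over WT ratios in these same libraries, so every value of a member is a description and carries no test. Single-cell RNA was counted by droplet-based 3′ sequencing in 2 libraries, and each library was a pool of 2 to 3 liver tumors (hepatocellular carcinoma, HCC) from C57BL/6J mice. The WT library came from wild-type littermates and the hKO library from FABP5 hKO mice, in which the design text names an Alb-CRE-ER driver, so that the fatty acid binding protein gene is targeted in albumin-expressing cells after tamoxifen. Both groups received tamoxifen at 6 to 8 weeks of age, 5 injections of 100 mg/kg every 3 days, each after a 16 h fast. Both then ate a CD-HFD for 15 months, started 2 weeks after the last injection. The WT mice thus shared the diet, the tamoxifen and the tumors, and no tumor-free or untreated liver was analysed here.

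The heat shock response is run by the transcription factor HSF1, which the chaperones hold inactive until unfolded protein draws them away, after which it binds inverted repeats of the bases GAA in chaperone promoters. HSP70 proteins bind unfolded chains with the help of J-domain proteins, which bring the client and start ATP hydrolysis, and of nucleotide exchange factors, which release it. HSP90 acts later, on kinases and steroid receptors, while the chaperonin made by Hspd1 and Hspe1 folds proteins inside mitochondria. Warming and enzymatic digestion of tissue are known to induce parts of this response in single-cell preparations, and both libraries were digested with collagenase for 1 h at 37 °C.

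The inducible HSP70 genes Hspa1a and Hspa1b gave 11 of the 12 pairs of a gene and a cell class counted as higher in hKO (at least 2-fold, 50 CPM, UMIs per 1000000 of a class, in 1 library and a counting interval that excluded equality), and their promoters are shown first because they are almost the same. Promoter entries (RefSeq, build GRCm38.p6) were matched for 7 of 10 members, and Hspa8, Hsp90aa1 and Hsp90ab1 had none. The sequences below run 5′ to 3′ on the gene's strand over the 250 bases before the start site, at chr17:34972157-34972406 for Hspa1a and chr17:34959239-34959488 for its neighbour Hspa1b, both on the minus strand. Capitals mark the only heat shock motif found there, an inverted repeat of GAA units. Hspa1a and Hspa1b matched at 247 of 250 bases, and in both the motif began 104 bases before the start.
Hspa1a: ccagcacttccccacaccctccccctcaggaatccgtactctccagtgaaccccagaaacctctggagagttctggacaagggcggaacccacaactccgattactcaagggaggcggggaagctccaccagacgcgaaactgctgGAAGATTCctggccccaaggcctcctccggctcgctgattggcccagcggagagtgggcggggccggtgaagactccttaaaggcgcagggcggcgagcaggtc
Hspa1b: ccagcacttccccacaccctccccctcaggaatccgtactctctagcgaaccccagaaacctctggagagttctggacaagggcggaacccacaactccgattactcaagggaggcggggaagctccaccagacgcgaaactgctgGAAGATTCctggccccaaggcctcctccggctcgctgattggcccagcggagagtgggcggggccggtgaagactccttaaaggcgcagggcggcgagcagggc

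Hspd1 and Hspe1, the mitochondrial pair, lie head to head on chromosome 1 with start sites 216 bases apart. They share 1 run of 18 bases made of overlapping GAA repeats at chr1:55088053-55088082, shown in capitals on the plus strand for Hspe1 and on the minus strand for Hspd1, because this is the only stretch of motifs in any of their entries.
Hspe1: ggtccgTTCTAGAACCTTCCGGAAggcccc
Hspd1: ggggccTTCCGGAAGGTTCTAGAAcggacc

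Hspb1, a small heat shock protein, held 2 such motifs on the plus strand at chr5:135887669-135887918, beginning 117 and 97 bases before the start. Hsph1, the HSP110 exchange factor, held a longer motif of 3 units on the minus strand at chr5:149636287-149636309, which begins at base 37 of the transcript from its upstream start site. A shorter motif, TTCTCGAA, began 33 bases before that start.
Hspb1: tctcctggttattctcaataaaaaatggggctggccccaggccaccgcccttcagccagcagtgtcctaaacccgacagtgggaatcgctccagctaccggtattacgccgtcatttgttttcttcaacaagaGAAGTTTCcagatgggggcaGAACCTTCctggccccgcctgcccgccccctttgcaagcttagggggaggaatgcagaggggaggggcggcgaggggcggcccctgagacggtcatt
Hsph1: tgctgcagaTTCTGGAAAGTTCt

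The motifs searched were GAANNTTC and TTCNNGAA, each of which reads the same on both strands, and the 3-unit forms, in which a further TTC or GAA follows after any 2 bases. The 3-unit forms are each other's reverse complement and contain both short ones. No match was found in either entry for Dnajb1, which says only that these letters are not in those windows. Of 32851 promoter windows of the same length, 7.86% held GAANNTTC, 8.52% held TTCNNGAA, 15.1% held either short form and 0.603% held either 3-unit form. Of the 7 members matched, 6 held a short form and 3 held a 3-unit form. A match is a description of the letters and not a measured binding site.

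After filtering, 9459 WT and 10402 hKO cells remained, with 48316789 and 48298750 UMIs (unique molecular identifiers, each counting 1 captured transcript). Median UMIs per cell were 3822 and 3642.5. Cells of both libraries were clustered together into 29 clusters, of which 4 stayed unnamed and the others were named from marker genes, with the ending -like. The 11 classes that held 100 cells or more of both libraries were compared, and in each of these every defining marker reached 30 CPM in both libraries (CPM, UMIs per 1000000 UMIs of the class). Of the barcodes, 18.5% in WT and 36.8% in hKO were over the limit of 25% mitochondrial UMIs, and among kept cells the median mitochondrial share was 6.95% and 10.0%. Abundant hepatocyte transcripts outside hepatocytes, a sign of free RNA, were also higher in hKO in the other 10 classes, for example 0.180% and 0.477% of UMIs in T-like cells. The estimated share of free RNA was instead lower in hKO in T-like (5.12% and 3.88%), B-like (30.05% and 16.3%) and conventional dendritic-like cells (6.34% and 4.43%). It was higher in hKO in the others of these 10 classes, so these measures did not always go the same way. The libraries shared 73 barcodes, 29 of them among kept cells. With 1 library per group, no test between WT and hKO was possible, and the part that mitochondrial share, free RNA or tissue handling has in any difference below was not tested.

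The targeted gene was read first. The 325 WT hepatocyte-like cells had 106 CPM of Fabp5 (78 UMIs) and the 795 hKO ones 9.0 CPM (14 UMIs), a log2 ratio of hKO over WT of -3.56 (95% interval -4.50 to -2.73, counting error only). The WT and hKO cells of this class came almost all from different clusters, as described below. The sources used here do not name the deleted exons, so 3′ counts cannot check the deletion itself. Fabp5 was also lower in hKO in neutrophil-like cells (63.4 and 22.04 CPM, log2 -1.52, interval -2.44 to -0.71) and monocyte-like cells (16.8 and 9.10, log2 -0.89, interval -1.46 to -0.31), so its lower level was not limited to hepatocyte-like cells. In macrophage-like cells Fabp5 was higher in hKO, at 25.5 and 33.7 CPM (log2 0.40, interval 0.11 to 0.70). The same held for T-like cells (5.08 and 8.78, log2 0.79, interval 0.17 to 1.44) and endothelial-like cells (16.8 and 24.0, log2 0.51, interval 0.07 to 0.94).

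Levels below are in CPM. Log2 ratios are hKO over WT, and their intervals, like those of the levels, cover counting error only and not the spread between mice. A gene is called past the fold in a class when it reached 50 CPM in a library, differed at least 2-fold (log2 ratio of 1 in size) and its interval left out 0. Over 110 pairs of a member and a class, 12 were higher past the fold in hKO and 5 were lower, and Hspa1b made up 8 of the 12. A pair under 50 CPM in both libraries could not pass.

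The share of all measured genes past the fold gives the background for these counts. Members are counted here as measured when they reached 50 CPM in a library of the class. In B-like cells 2 of 9 measured members were higher (Hspa1a and Hspa1b), where 4.92% of all genes were higher and 0.83% lower. Plasmacytoid dendritic-like cells had the same 2 members higher, of 9 measured, against 3.75% and 0.633%. Neutrophil-like cells had 3 of 7 measured members higher (with Hspe1) against 10.2% and 3.59%. In each of 5 classes Hspa1b alone was higher, with backgrounds of 4.11% higher and 0.507% lower in conventional dendritic-like, 3.74% and 0.651% in monocyte-like, 3.63% and 1.43% in natural killer (NK) or innate lymphoid-like, 4.57% and 1.39% in T-like and 3.9% and 2.29% in macrophage-like cells. Measured members numbered 9, 7, 9, 9 and 8 in these 5 classes, in that order. Endothelial-like cells had none of 6 measured members past the fold against 3.95% and 2.17%. The background differed most in the classes where members were lower: 3 members were lower in hepatocyte-like cells, where 58% of all genes were lower and 24.1% higher, and 2 in erythroid-like cells, where 51% were lower and 12.3% higher. Only 5 members reached 50 CPM in hepatocyte-like cells and 4 in erythroid-like cells, so these counts of lower members lie near the background and are no result about the members.

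Hspa1b was broad as well as high. It was measured at the floor of 50 CPM in 9 classes and was higher past the fold in 8. Over all features, 89 genes, Hspa1b among them, were higher past the fold in 8 or more classes. For scale, 2036 genes were measured in at least 9 classes, but the 89 were not limited to these, so no share is given.

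**Figure D1:**
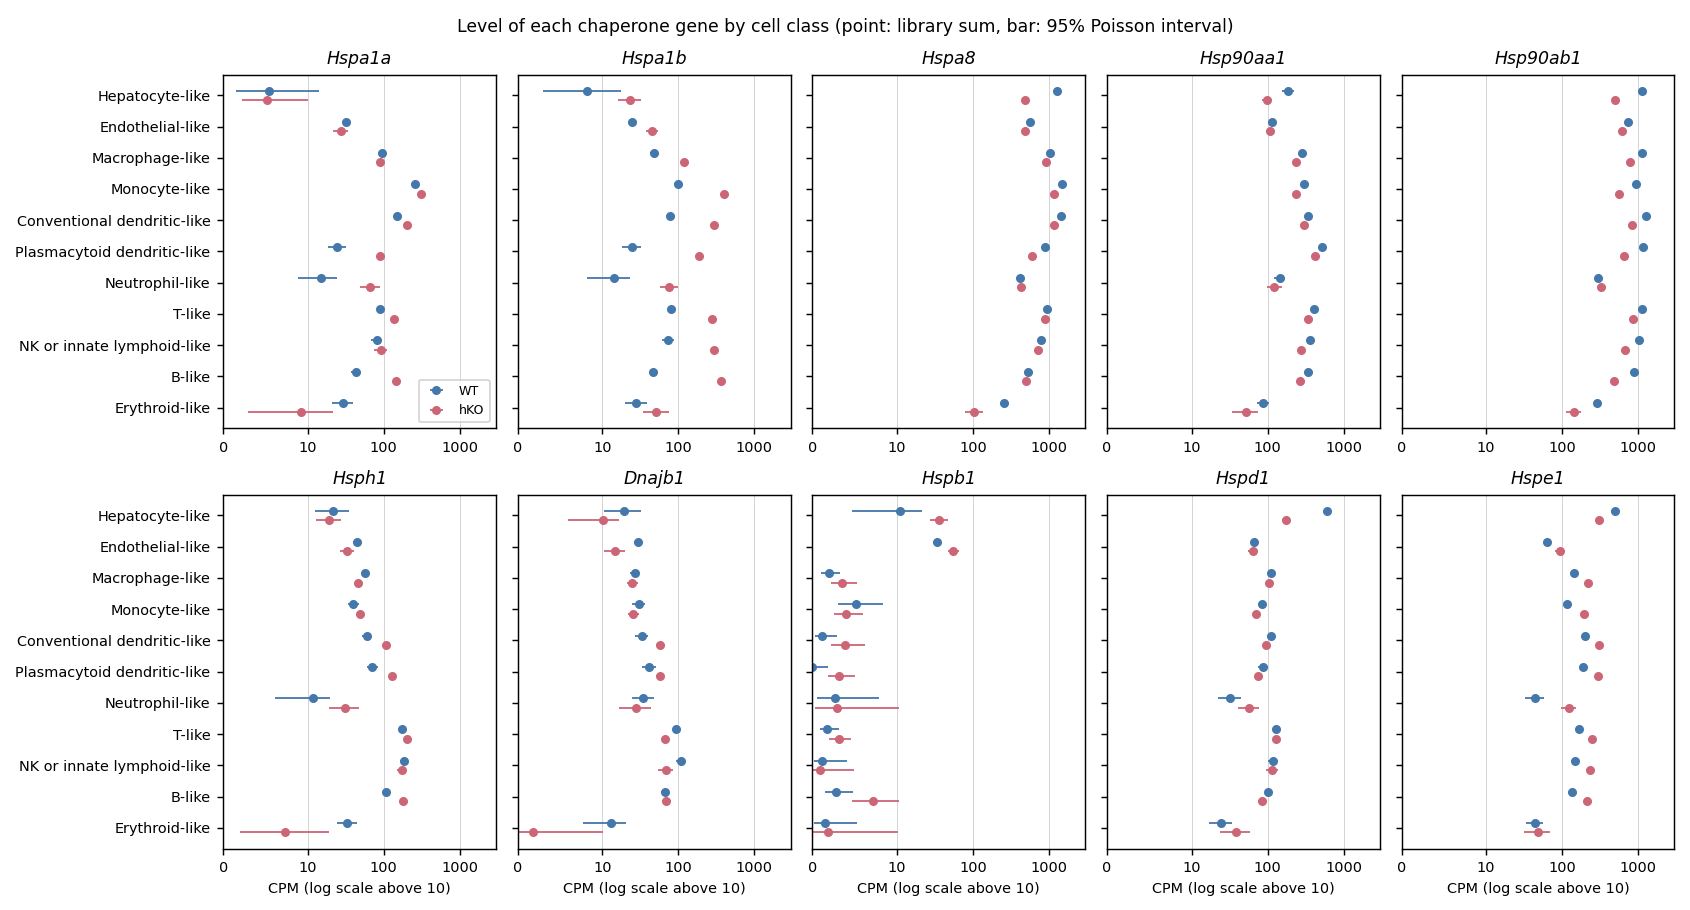
Level of each chaperone gene in 11 cell classes, in CPM (log scale above 10, linear below), for WT and hKO, as points with exact Poisson 95% intervals. Hspa1b is higher in hKO in all 11 classes as counted, with 97.8 and 396 CPM in monocyte-like cells and 8.17 and 23.1 in hepatocyte-like cells (in erythroid-like cells not after subtraction of free RNA).

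Hspa1b (ENSMUSG00000090877), which makes the stress-inducible HSP70, was higher in hKO in all 11 classes, although in erythroid-like cells the sign turned when free RNA was subtracted (log2 ratio -1.35). In WT its level ran from 8.17 CPM in hepatocyte-like cells to 97.8 in monocyte-like cells, and T-like, conventional dendritic-like and NK or innate lymphoid-like cells followed the monocytes. B-like cells had 46.7 CPM in the WT library and 361 in the hKO library, a 7.74-fold ratio (log2 2.95, interval 2.74 to 3.17). Those B-like cells came mostly from cluster 4 in WT (1281 of 1323 cells) and from cluster 5 in hKO (1214 of 1278), so the classes compared are not the same clusters. Plasmacytoid dendritic-like cells, the main interferon producers, read 24.6 and 185 CPM (log2 2.92, interval 2.51 to 3.36). They formed a single cluster, but at Leiden resolution 2.0 they too split by library, into a cluster of 26 WT and 917 hKO cells and one of 274 WT and 18 hKO cells.

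In the other classes the Hspa1b ratio was between 1.83-fold and 5.35-fold. Monocyte-like cells had 97.8 CPM in WT and 396 in hKO (log2 2.02, interval 1.85 to 2.19). T-like cells had 80.8 and 276 CPM (log2 1.77, interval 1.63 to 1.92). Ratios near that of the monocytes were read in NK or innate lymphoid-like cells (72.8 and 294 CPM, log2 2.02) and in conventional dendritic-like cells (77.9 and 299, log2 1.94). Macrophage-like cells, which include the liver's Kupffer cells, had the smallest ratio past the fold, 48.0 and 120 CPM (log2 1.32, interval 1.13 to 1.51), and with every cell thinned to 1000 UMIs it was 0.87, not past the fold. These too were held by different clusters, with cluster 9 (785 hKO and 24 WT cells, medians of 976 and 796 UMIs) adding mostly hKO cells. Neutrophil-like cells read 14.3 and 76.4 CPM on only 16 and 52 UMIs (log2 2.42, interval 1.59 to 3.33). A UMI of Hspa1b was seen in 2.00% of the 501 WT and 5.36% of the 261 hKO neutrophil-like cells, and with cells thinned to 1000 UMIs 1 of the 3 members past the fold in this class was left. Endothelial-like (24.9 and 45.4 CPM), erythroid-like (28.2 and 51.4) and hepatocyte-like cells (8.17 and 23.1, on 6 and 36 UMIs) were also higher in hKO but did not pass the fold. All 11 counting intervals lay above 0.

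Hspa1a (ENSMUSG00000091971) encodes almost the same protein and did not follow its neighbour everywhere. It passed the fold in 3 classes, B-like (42.8 and 146 CPM, log2 1.77, interval 1.53 to 2.01), plasmacytoid dendritic-like (24.6 and 88.5, log2 1.85, interval 1.43 to 2.30) and neutrophil-like cells (15.2 and 66.1, log2 2.12, interval 1.29 to 3.02). In the remaining classes the libraries were nearer. Monocyte-like cells, the highest class in both libraries, had 261 and 313 CPM, and T-like cells had 89.0 and 138. Intervals included 0 in the macrophage-like (95.5 and 89.1), endothelial-like (31.6 and 27.3), hepatocyte-like (5.45 and 5.14) and NK or innate lymphoid-like class (80.8 and 92.0). Erythroid-like cells had 28.9 and 9.19 CPM on 40 and 5 UMIs. The median log2 ratio over the 11 classes was 0.26 for Hspa1a and 1.94 for Hspa1b.

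Because the pair differed in its ratios, the Hspa1b share of Hspa1a plus Hspa1b UMIs was read in each class. In WT the share ran from 27.3% in monocyte-like to 60.0% in hepatocyte-like cells (median 47.6%), and in hKO from 53.6% in neutrophil-like to 84.8% in erythroid-like cells (median 66.6%). It was higher in hKO in 11 of 11 classes, and the Clopper-Pearson 95% intervals of the libraries were apart in 9, all but neutrophil-like and hepatocyte-like cells. In monocyte-like cells it was 27.3% (24.8 to 29.9) in WT and 55.8% (54.3 to 57.4) in hKO. In NK or innate lymphoid-like cells it was 47.4% (41.3 to 53.6) and 76.2% (71.9 to 80.1). Summed over both genes, the log2 ratio was above 0 in 11 classes, from 0.09 in erythroid-like to 2.50 in B-like cells (median 1.14), and its interval lay above 0 in 10.

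Counts of near-identical genes can be split between them by read assignment. The Hspa1a and Hspa1b transcripts (GENCODE M21, GRCm38) were 95.1% identical over 2692 aligned bases, and 49.1% of 91-base windows of Hspa1a also occurred in Hspa1b. None of the windows in the last 300 or 500 bases, near which 3′ reads fall, was shared. The sources used here do not say how reads that fit both genes were counted, so the split within the pair is uncertain.

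**Figure D2:**
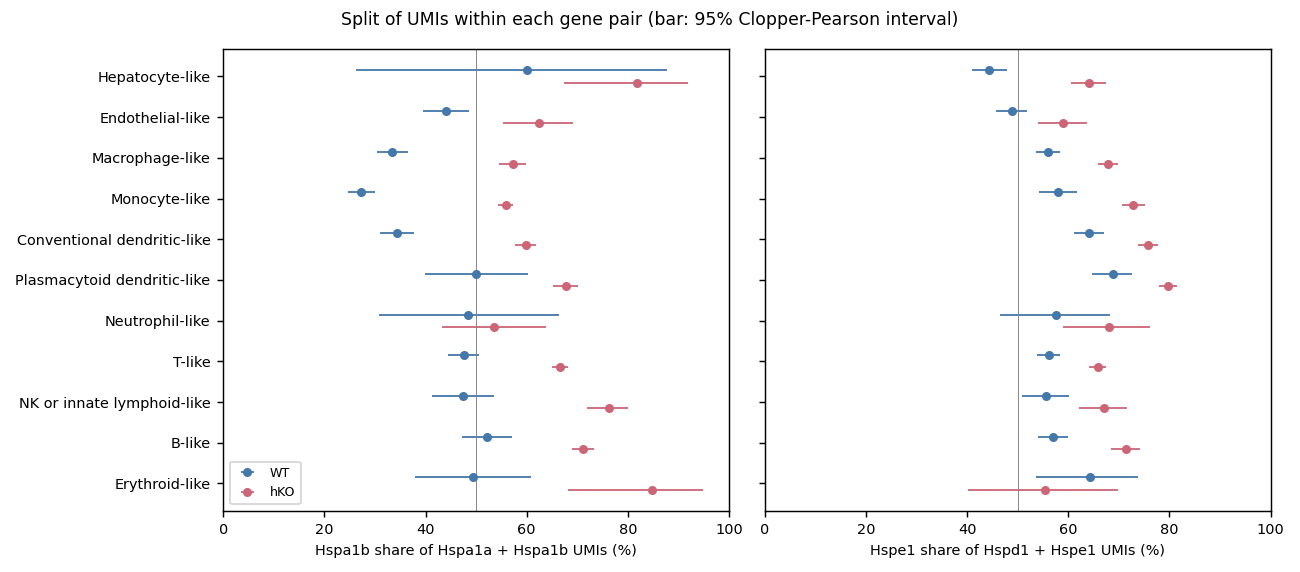
Share of UMIs within the pairs Hspa1a plus Hspa1b (left, Hspa1b share in percent) and Hspd1 plus Hspe1 (right, Hspe1 share in percent) in 11 classes, with Clopper-Pearson 95% intervals. The Hspa1b share is higher in hKO in 11 classes and the Hspe1 share in 10.

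Hspa8 (ENSMUSG00000015656), the constitutive HSC70 that folds new chains and uncoats clathrin vesicles, was lower or near WT in hKO. Its level in WT ran from 256 CPM in erythroid-like to 1499 in monocyte-like cells. In hKO it ran from 105 in erythroid-like to 1169 in monocyte-like cells, so the classes at both ends were the same. Neutrophil-like cells had 421 and 433 CPM, and the other 10 classes were lower in hKO, 3 of which (T-like, B-like and the NK or innate lymphoid-like class) turned to between 0.01 and 0.07 when ratios were centred on the median gene. The median log2 ratio over all 11 was -0.19. In 8 of the 10 the ratio was no larger in size than that of plasmacytoid dendritic-like cells, 885 and 599 CPM (log2 -0.56). It was lower past the fold in hepatocyte-like cells, 1261 and 480 CPM (log2 -1.39, interval -1.54 to -1.25), and in erythroid-like cells, 256 and 105 (log2 -1.29, interval -1.72 to -0.88).

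The HSP90 genes were lower in hKO in nearly every class, mostly by less than 2-fold. Hsp90ab1 (ENSMUSG00000023944), the constitutive form, was highest in WT in conventional dendritic-like cells, 1256 and 822 CPM (log2 -0.61). It read 1137 and 851 CPM in T-like, 1123 and 788 in macrophage-like, and 891 and 484 in B-like cells (log2 -0.88, interval -0.96 to -0.80). It was lower past the fold in hepatocyte-like cells, 1119 and 498 CPM (log2 -1.17, interval -1.31 to -1.03), and in erythroid-like cells, 288 and 141 (log2 -1.03, interval -1.40 to -0.67). Neutrophil-like cells were the exception at 300.2 and 329 CPM.

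Hsp90aa1 (ENSMUSG00000021270), the inducible HSP90, was below WT in 11 of 11 classes, though in erythroid-like cells the sign turned after free RNA was subtracted (0.39). In 5 further alternatives 1 or 2 classes were above WT, by a log2 ratio of at most 0.28. The median log2 ratio was -0.32, and no class passed the fold. Plasmacytoid dendritic-like cells were the highest class in both libraries, 524 CPM (493 to 557) in WT and 421 (404 to 439) in hKO. T-like cells followed, at 404 and 346 CPM, and erythroid-like cells were lowest, at 86.7 and 51.4. The largest gap was in hepatocyte-like cells, 187 and 98.4 CPM (log2 -0.92, interval -1.26 to -0.58). In B-like cells, where both inducible HSP70 genes were higher, Hsp90aa1 read 340 and 271 CPM.

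Hsph1 (ENSMUSG00000029657), which exchanges nucleotide on HSP70, was above WT in 6 classes and below in 5 (8 and 3 when centred on the median gene). It was highest in lymphoid classes, with 174 and 202 CPM in T-like, 185 and 172 in NK or innate lymphoid-like, and 108 and 178 in B-like cells (log2 0.72, interval 0.55 to 0.90). Plasmacytoid dendritic-like cells, 71.3 and 129 CPM (log2 0.85), and conventional dendritic-like cells, 60.4 and 107 (log2 0.82), were higher in hKO without passing the fold. Macrophage-like cells had 56.0 and 46.6 CPM.

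Dnajb1 (ENSMUSG00000005483), the J-domain partner of HSP70, was also highest in lymphoid classes in both libraries, with 107 and 69.2 CPM in the NK or innate lymphoid-like class, 94.1 and 66.9 in T-like cells and 67.0 and 69.9 in B-like ones. Only conventional dendritic-like (33.0 and 58.3), plasmacytoid dendritic-like (41.3 and 57.4) and B-like cells were above WT. No class passed the fold for Hsph1 or Dnajb1, and erythroid-like cells held few counts, with 46 and 4 UMIs of Hsph1 and 18 and 1 of Dnajb1.

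Hspb1 (ENSMUSG00000004951), a small heat shock protein that holds unfolded chains without ATP, was highest in non-immune classes. Endothelial-like cells had 34.0 CPM (30.1 to 38.1) in WT and 55.3 (46.8 to 64.8) in hKO, and hepatocyte-like cells 10.9 and 36.0 on 8 and 56 UMIs. The endothelial-like cells fell into different clusters, with 304 WT and 50 hKO cells in cluster 19 (53.5 CPM in WT) and 65 WT and 170 hKO cells in cluster 25 (94.5 CPM in hKO). In cluster 3, which had over 100 cells of both libraries, Hspb1 was at 28.3 and 29.5 CPM (log2 0.06, interval -0.42 to 0.52), and in thinned endothelial-like cells 3.81% of cells of either library had a UMI. In the other 9 classes it was at most 5.20 CPM in WT and 7.22 in hKO. Plasmacytoid dendritic-like cells held 17 UMIs in hKO against 0 in WT, which is at least 2.15-fold higher against a floor of 3 counts over the class, while the counting interval of the ratio reaches down to a log2 of 0.65. Outside endothelial-like and hepatocyte-like cells no class held more than 25 UMIs of Hspb1 in a library.

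The mitochondrial chaperonin genes were highest in hepatocyte-like cells and parted between the libraries, although in hKO Hspe1 in those cells (309 CPM) did not differ beyond its interval from conventional dendritic-like cells (303). Hspd1 (ENSMUSG00000025980), the HSP60 ring, was at 611 and 174 CPM there (449 and 270 UMIs, log2 -1.82, interval -2.04 to -1.60), the most negative of the 5 ratios lower past the fold. In the 8 other classes outside neutrophil-like and erythroid-like cells it was within 1.20-fold of WT, with T-like cells at 131 and 129 CPM and macrophage-like cells at 111 and 105. Hspe1 (ENSMUSG00000073676), the HSP10 lid of the same machine, was higher in hKO in 10 of 11 classes with a median log2 ratio of 0.65. It read 197 and 303 CPM in conventional dendritic-like, 168 and 249 in T-like, and 117 and 192 in monocyte-like cells, none past the fold. It passed the fold in neutrophil-like cells, 43.8 and 122 CPM (log2 1.48, interval 0.95 to 2.02). Hepatocyte-like cells were lower, 489 and 309 CPM (log2 -0.66, interval -0.86 to -0.46), but the sign turned when ratios were centred on the median gene (0.06).

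Within this pair, the split of UMIs also differed between the libraries. The Hspe1 share of Hspd1 plus Hspe1 UMIs had a median over classes of 57.0% in WT and 67.9% in hKO, was higher in hKO in 10 classes and had intervals apart in 9. In hepatocyte-like cells it was 44.4% (41.0 to 47.9) in WT and 64.0% (60.5 to 67.5) in hKO. Erythroid-like cells were the exception, at 64.2% and 55.3% with overlapping intervals.

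**Figure D3:**
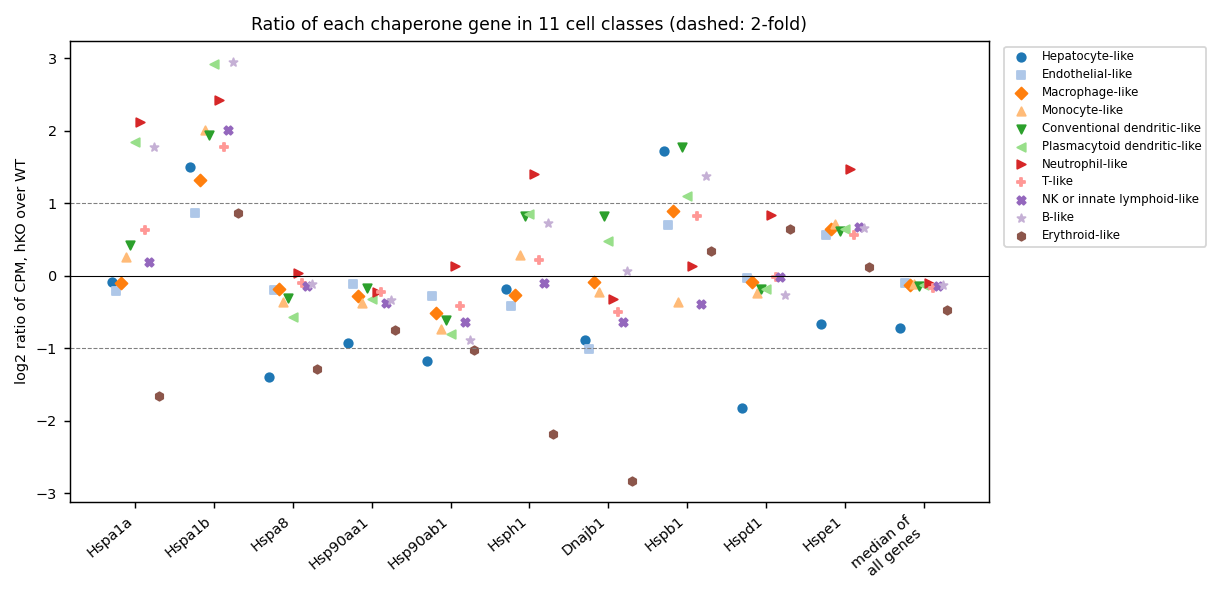
Log2 ratio of CPM, hKO over WT, of each chaperone gene in 11 classes (1 marker per class), with the median of all measured genes of each class in the last column and dashed lines at 2-fold. Hspa1b and most Hspe1 markers lie above 0, and the HSP90 genes lie below 0 except Hsp90ab1 in neutrophil-like cells (as counted; Hsp90aa1 turned in 1 or 2 classes with free RNA subtracted and in 5 further alternatives).

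In hepatocyte-like and erythroid-like cells the median of all genes was itself at a log2 ratio of -0.72 and -0.47, against -0.17 to -0.09 in the other classes. Relative to that median, the hepatocyte-like ratios were -0.68 for Hspa8, -0.45 for Hsp90ab1 and -1.10 for Hspd1, and of these Hspd1 alone was past the fold. In erythroid-like cells Hspa8 was at -0.82 and Hsp90ab1 at -0.56 on that scale, neither past the fold. The hepatocyte-like cells also came from different clusters: 324 of the 325 WT cells were in cluster 22, led by Fabp1 and Rgn, and 793 of the 795 hKO cells in cluster 10, led by Cyp2a5 and Ugt2b5, with median mitochondrial shares of 11.4% and 19.8%.

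A further hKO cluster bore on this. Cluster 21 (307 hKO and 23 WT cells), led by Car3 and Gstp2, had hepatocyte markers but stayed unnamed because its few WT cells were shallow (median 1034 UMIs, against 2022 in its hKO cells). Its hKO cells held 1050 CPM of Hspa8, 1468 of Hsp90ab1 and 597 of Hspd1, beside the 1261, 1121 and 612 CPM of WT cluster 22 and above the 480, 498 and 174 of hKO cluster 10. Hspe1 was at 861 CPM in cluster 21, 490 in cluster 22 and 308 in cluster 10, and Hspb1 at 172, 10.9 and 36.1. Counting cluster 21 as hepatocyte-like brought the ratios to -0.67 for Hspa8, -0.15 for Hsp90ab1 and -0.57 for Hspd1, none past the fold. Cluster 24 (201 WT and 36 hKO cells), led by Spp1, had cholangiocyte markers raised but stayed unnamed because hepatocyte markers were raised too. Its WT cells held 2009 CPM of Hspa8 and 185 of Hspb1.

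**Figure D4:**
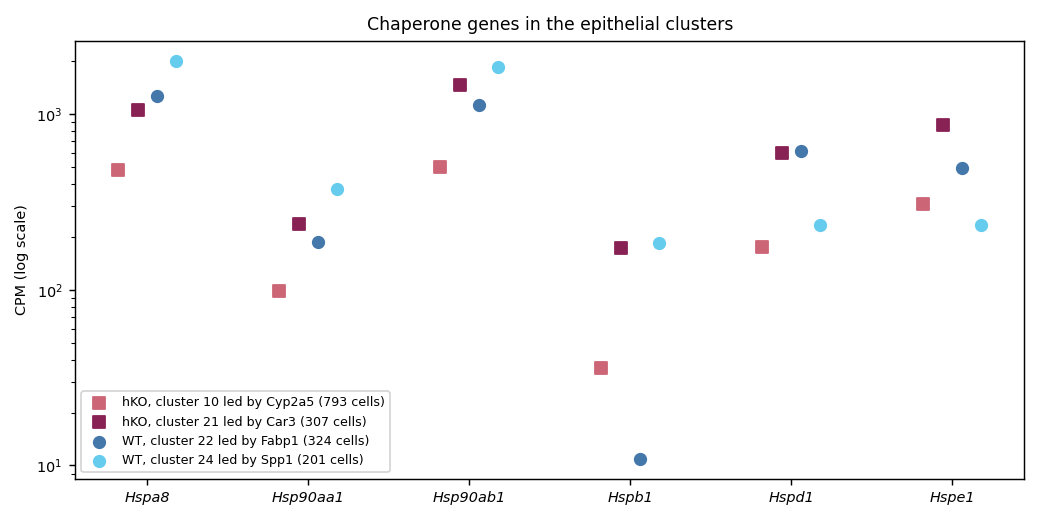
Levels of 6 chaperone genes, in CPM on a log axis, in the 4 clusters with hepatocyte or cholangiocyte markers, each as the summed UMIs of the library that supplied most of its cells. For Hspa8, Hsp90ab1 and Hspd1 the hKO cluster led by Car3 lies closer to the WT cluster led by Fabp1 than does the hKO cluster led by Cyp2a5, which lies below both.

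Since joint classes can hide a change in composition, ratios were also read within the 14 clusters that had at least 100 cells of each library. These can still differ in their mix of cells. At Leiden resolution 2.0 plasmacytoid dendritic-like cells split by library, as above. T-like cells then formed, among others, a cluster of 834 WT and 49 hKO cells and one of 60 WT and 772 hKO cells. Hspa1b was above WT in 14 of 14 and past the fold in 13, with log2 ratios from 0.87 to 2.93. Hspe1 was above WT in 14 of 14, from 0.12 to 1.48, with 1 past the fold. Hspa1a was above WT in 12 and past the fold in 2. Hsp90ab1 was above WT in 1 and Hsp90aa1 in 2, of which cluster 20, with T-like cells, read 477 and 568 CPM (log2 0.25, interval 0.11 to 0.40). Hsph1 and Dnajb1 each passed the fold in 1. The highest Hspa1b ratio, 2.93, was in cluster 20 (30.6 and 233 CPM), and B-like cells, with the highest ratio of a class, had no such cluster.

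Mitochondrial share differed between the libraries, so levels were read in bins of it over all barcodes with at least 200 genes, per 1000000 non-mitochondrial UMIs. Each bin pools all cell types, whose mix differed between the libraries, with 634 WT and 1173 hKO monocyte-like cells among kept cells. Hspa1b in WT was at 54.4, 52.3, 45.0, 31.6 and 38.3 in barcodes with 0 to 5, 5 to 10, 10 to 25, 25 to 50 and 50 to 100% mitochondrial UMIs. In hKO it was at 267, 254, 239, 98.6 and 167 in the same bins, above WT in each of the 5. Hspe1 was also above WT in each bin, between 133 and 181 in WT and between 273 and 386 in hKO. Hspa1a was above WT in each bin as well, with 94.8 and 184, 72.7 and 154, and 56.0 and 119 in the bins up to 25%. It was nearly level between 25 and 50% (35.4 and 37.3) and at 79.8 and 127 above 50%. Within classes, Hspa1a was above WT in only 7 of 11, with a median log2 ratio of 0.26. Hspa8 was at 1173 and 1115 in the lowest bin and 903 and 904 in the next, and the libraries differed most above 25%, with 1086 and 804 between 25 and 50%. Within cells of at most 10% mitochondrial UMIs, Hspa1b in T-like cells was at 83.9 (WT) and 283 (hKO), and in B-like cells at 48.8 and 396.

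**Figure D5:**
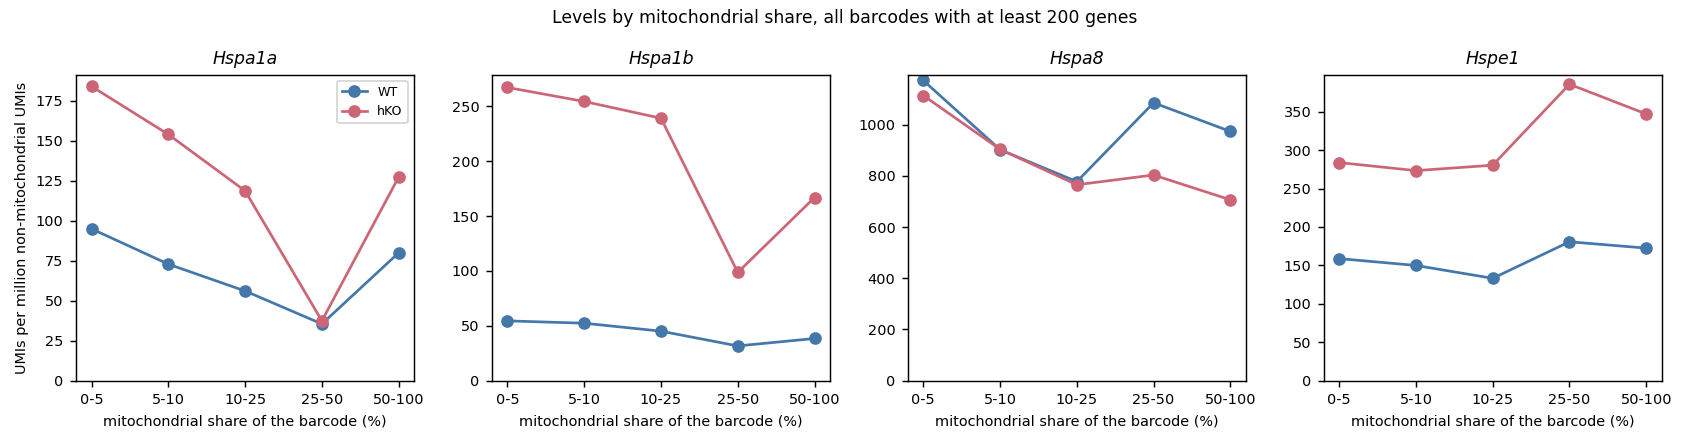
Levels of Hspa1a, Hspa1b, Hspa8 and Hspe1 (UMIs per 1000000 non-mitochondrial UMIs, axes from 0) in 5 bins of the mitochondrial share of a barcode, for all barcodes with at least 200 genes, all cell types pooled. The Hspa1a, Hspa1b and Hspe1 lines of hKO lie above those of WT in every bin, for Hspa1a barely between 25 and 50%. The Hspa8 lines part most above 25%.

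The share of cells with an Hspa1b UMI was read after thinning each cell to 1000 UMIs, with shallower cells left out. It was then seen in 4.49% of 1314 WT and 21.8% of 1250 hKO B-like cells (9 and 28 too shallow), and without thinning in 11.4% and 36.6%. Monocyte-like cells had 9.60% and 24.8%, unthinned 27.8% and 48.3%, with 9 and 17 cells too shallow. T-like cells had 7.99% and 19.7%, unthinned 21.3% and 42.3%, with 21 and 31 too shallow. No class is known to lack the gene, so the lowest shares serve as a guide to background. The share of UMIs estimated as free RNA was 30.05% in WT and 16.3% in hKO B-like cells, 11.6% and 29.1% in plasmacytoid dendritic-like, 31.4% and 33.8% in neutrophil-like, 42.5% and 15.6% in hepatocyte-like and 31.1% and 75.7% in erythroid-like cells. In the other 6 classes it was between 3.88% and 10.7%. Hepatocyte-like cells had a UMI in 0 of 208 WT cells (upper limit of the interval 1.76%, median depth 1300 UMIs) and in 2.18% of hKO cells (median 1385). Neutrophil-like cells had 0.83% and 1.63% (medians 1960 and 1946). Erythroid-like cells had 1.97% and 2.45%, and endothelial-like cells 1.87% and 3.05%. In these 4 classes the intervals of the libraries overlapped.

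The members were also read for how often they were seen in the same cells. Among thinned WT cells with an Hspa1a UMI, 17.8% also had an Hspa1b UMI, against 4.06% of cells without Hspa1a, and in hKO 43.5% against 12.0%. Hsph1 was seen in 17.2% of Hspa1b-positive WT cells and 6.02% of the others, and in hKO in 18.1% and 6.86%. Some other pairs shared this in WT: Hsph1 was seen in 15.2% of cells with Dnajb1 and 6.17% of the others. Hsp90aa1 was seen in 34.8% of WT cells with Hspa1a and 20.5% of the others. Not every pair did: in WT, Hspd1 was seen in 9.26% of cells with Hspa1b and 8.79% of the others. Hspb1 was seen in 0.43% of WT cells with Hspa1a and 0.83% of the others. Across the 11 classes, levels of Hspa1a and Hspa1b moved together (lower Pearson r of the 2 libraries 0.93), as did Hspa8 and Hsp90ab1 (0.85), Hsph1 and Dnajb1 (0.83) and Hspd1 and Hspe1 (0.82). Cells of all classes were pooled for these shares. The correlations describe 11 classes that share a library and its free RNA.

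Other genes with a like pattern over the classes were ranked among 5891 candidates by the lower of the 2 libraries' Pearson r on log2(CPM + 10), over the 11 classes and with no test. Nearest to Hspa1a were Ahcyl2 (0.91), Map3k14 (0.90) and Crip1 (0.88). Nearest to Hspa8 were Cct8 (0.96), a subunit of the cytosolic chaperonin, Psma1 (0.95), a proteasome subunit, and Eif4a1 (0.95), a translation factor. Hsp90aa1 was most like Jpt1 (0.94), Hspb1 most like Ghr (0.95), the growth hormone receptor, and Hspd1 most like Mdh1 (0.96), a malate dehydrogenase.

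Many classes next to each other in the order of levels could not be told apart. Of the 10 neighbouring pairs in the WT order, the 95% intervals overlapped in 6 for Hspa1a, 8 for Hspa1b, 3 for Hspa8, 7 for Hsp90aa1, 6 for Hsp90ab1 and 7 for Hspe1. In hKO they overlapped in 5 for each of the first 5 genes and in 7 for Hspe1. For Hsph1, 7 and 6 neighbours overlapped in WT and hKO, for Dnajb1 8 and 8, for Hspd1 7 and 9 and for Hspb1, whose UMIs are few, 9 and 8. Hspa1a was highest in monocyte-like cells in both libraries, followed in WT by conventional dendritic-like cells at 149 CPM (137 to 162), below the 261 (244 to 279) of monocyte-like cells.

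Other genes of the pathway were read from lists by role. The counts pool classes in which 0.507% (conventional dendritic-like) to 58% (hepatocyte-like) of all genes were lower past the fold. Between 3.63% and 24.1% of all genes of a class were higher. The heat shock factors and their binding partners had 0 higher and 2 lower of 10 measured pairs, both in hepatocyte-like cells, Hsf2bp at 64.0 and 2.57 CPM and Hsbp1 at 189 and 62.4. Of the 8 pairs in other classes, 7 were above WT without passing the fold, and the median of the class medians was 0.38. Of 73 pairs of a measured HSF1-responsive co-chaperone gene and a class, 1 was higher past the fold and 15 lower, and the median of the class medians was -0.43. The higher one was Serpinh1, a collagen chaperone, in endothelial-like cells (69.6 and 163 CPM, log2 1.23), where Ubb, a ubiquitin gene, was lower (875 and 370 CPM, log2 -1.24). Other HSP70 and HSP90 cofactors had 0 higher and 16 lower of 88 pairs, among them Fkbp5, an HSP90 co-chaperone induced by glucocorticoids, in macrophage-like cells (221 and 39.2 CPM, log2 -2.49). The cytosolic chaperonin TRiC had 1 higher and 7 lower of 75, and the other mitochondrial chaperones and proteases 0 and 5 of 21. Immediate early genes, which tissue dissociation is known to induce, had 1 higher and 14 lower of 118, and their part in the values of the members was not tested.

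Most of the lower calls came from hepatocyte-like cells, where 58% of all genes were lower. There, 9 of 9 measured HSF1-responsive co-chaperone genes were lower past the fold (median -2.43), with Ahsa1, which activates the HSP90 ATPase, at 108 and 7.72 CPM and Ubb at 2204 and 242. Among cofactors 9 of 9 were lower (median -2.29), with Bag1 at 294 and 45.6 CPM and Cdc37, the kinase adaptor of HSP90, at 120 and 18.6. TRiC had 7 of 8 lower, with Cct4 at 159 and 36.6 CPM, and the mitochondrial list 5 of 7, with Grpel1 at 348 and 32.1 CPM and Clpx, an AAA unfoldase, at 144 and 27.6. Chaperones of the endoplasmic reticulum went the other way in these cells, with 9 of 10 measured genes higher past the fold and none lower (median 2.75), where 24.1% of all genes were higher. Hspa5, the endoplasmic HSP70, read 139 and 1440 CPM (log2 3.37, interval 3.09 to 3.67), and Hsp90b1, the endoplasmic HSP90, at 137 and 1369 (log2 3.32, interval 3.03 to 3.62). In the other 10 classes together the endoplasmic list had 1 higher and 1 lower pair. The hepatocyte-like values of all lists set hKO cells almost all of cluster 10 against WT cells almost all of cluster 22. Cluster 21 is not counted in them.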

How the data were processed

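Raw UMI counts per gene and barcode were deposited as whole numbers. The software given per the file headers is Cell Ranger 7.1.0. Per the submitters' processing notes the build was mm9, with R 3.0 and Seurat 3. The other deposited columns name genes and barcodes. No coordinate was taken from the counts, and 32158 of 32285 feature IDs matched GENCODE M21. Promoter letters are RefSeq's on GRCm38.p6.

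Barcodes were kept at 200 genes, 500 UMIs and at most 25% mitochondrial UMIs. Doublets were scored per library with Scrublet, and 394 WT cells (its own threshold, 4.00%) and 1049 hKO cells (the top 9.16% of scores, since its threshold called only 0.0175%) were removed. Kept cells held 48316789 and 48298750 UMIs. Both libraries were clustered without integration in scanpy 1.11.5 (counts per 10000, log, 2000 variable genes per library without the chaperone and pathway genes, Fabp5 or mitochondrial, immunoglobulin and ribosomal-protein genes, 30 components, 15 neighbors, Leiden 1.0, seed 1). Clusters were named from at least 3 raised markers, raised being 30 CPM and 2 times the mean of the others after adding 20 CPM. A cluster stayed unnamed where another type's markers were raised too, or where it was shallow (less than 33.3% of the median depth of its library) with none of its own markers among its 10 leading genes.

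UMIs were summed per class and scaled to CPM. Intervals are exact Poisson for levels, Clopper-Pearson for shares and exact conditional binomial for ratios, and a count of 0 takes a floor of 3 counts. Their coverage was tested only on data simulated with independent Poisson counts, which is the error they assume. The simulation held no clumping of UMIs in cells and no spread between mice, so it cannot speak to either. With 1 library per group there is no test, p-value or SE. All 10 members are named in every class, other genes by the largest ratios of 7 role lists past the fold in hepatocyte-like, endothelial-like, macrophage-like and T-like cells (none in T-like cells). The members and lists were chosen with earlier results of these data known.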

Additional observations from a re-analysis of the deposited data

Results flagged for a closer look

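Barcodes over the limit of 25% mitochondrial UMIs entered no comparison of classes above, and 2 chaperone genes were past the fold in them. No share of all genes past the fold is given for these barcodes, so this count has no background beside it. Their levels are per 1000000 non-mitochondrial UMIs and so are not on the scale of the class levels in CPM. Hspa1b was at 33.1 in WT and 111 in hKO (45 and 580 UMIs), a log2 ratio of 1.75 (interval 1.31 to 2.22). Hspe1 was at 179 and 379 (243 and 1977 UMIs), a log2 ratio of 1.08 (interval 0.89 to 1.28). Both were past the fold in the direction seen in most classes of kept cells. The other 8 members were not past the fold in these barcodes, with Hspa1a at 45.6 and 53.8 and Hspa8 at 1060 and 786. Cell types were not assigned to these barcodes, so their mix may differ between the libraries, and this was not tested. Abundant hepatocyte transcripts were 2.61% of non-mitochondrial UMIs in WT and 7.79% in hKO between 25 and 50%, and 4.32% and 9.59% above 50%.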

How the results depend on the processing

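No paired analysis was possible because each group is 1 library, and for the same reason no library could be left out. Of the 17 pairs past the fold, each kept its direction wherever an alternative gave a value. The total of 12 higher and 5 lower moved most with the threshold: at 20 CPM and 1.5-fold it was 30 and 17. No share of all genes is given for this looser rule, so its counts cannot be set against a background. By class that rule called 4 higher and 1 lower in B-like, 4 and 1 in conventional dendritic-like, 4 and 1 in plasmacytoid dendritic-like, 2 and 1 in endothelial-like, 1 and 5 in erythroid-like, 2 and 5 in hepatocyte-like, 2 and 1 in monocyte-like and 2 and 2 in NK or innate lymphoid-like cells, with 5 higher in neutrophil-like, 2 in T-like and 2 in macrophage-like cells.

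Of the members lower over all classes, 1 was left with median scaling, 3 with free RNA subtracted and 2 with the unnamed hepatocyte cluster counted in. Where classes with lower members were lost, 3 were left at 500 genes and 1000 UMIs (no erythroid-like class), 0 at a mitochondrial limit of 10% (neither erythroid-like nor hepatocyte-like) and 2 with clusters holding 100 cells of each library (no hepatocyte-like class). The unnamed cluster counted in turned hepatocyte-like cells to 2 higher and 0 lower, while median scaling left 1 lower there, Leiden resolution 2.0 and a mitochondrial limit of 50% gave 5 lower, and leaving abundant gene kinds out of the total gave 1 higher. In erythroid-like cells 0 were lower with doublets kept, median scaling, free RNA subtracted, Leiden resolution 2.0 or the 50% limit. There 1 was lower with members among the variable genes, without mitochondrial UMIs in the total, or without abundant gene kinds, and 1 was higher with doublets kept, median scaling or the 50% limit (2 without abundant gene kinds). Endothelial-like cells had 1 higher with doublets kept, at either mitochondrial limit, and in clusters of 100 cells of each library. With cells thinned to 1000 UMIs, 0 were higher in macrophage-like cells (Hspa1b at 0.87) and 1 in neutrophil-like cells. Apart from the lost classes, the cause of each shift was not tested. The shared clusters, the unnamed cluster counted in and the total without mitochondrial UMIs were chosen after seeing the data.

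Levels taken as a mean over cells instead of a sum lay outside the counting interval in 85 of 220 cases. Some classes were lost: erythroid-like, hepatocyte-like and neutrophil-like cells at a limit of 10%, erythroid-like cells at 500 genes and 1000 UMIs, and B-like and hepatocyte-like cells with shared clusters. Depth limits Hspb1 and the HSP70 pair in hepatocyte-like, neutrophil-like and erythroid-like cells, which rest on few UMIs.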

Other observations

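Hspa1a and Hspa1b lie in a gene-dense stretch of chromosome 17, and the 15 protein-coding genes on each side of them were read after the Hspa1b values had been seen. Of these 30 neighbours, 9 reached 50 CPM in at least 1 class, giving 38 pairs of a gene and a class, of which 15 were higher past the fold in hKO and 2 lower, where between 3.63% and 24.1% of all genes of a class were higher. Cfb, complement factor B, was higher in 8 of 8 classes measured, with a median log2 ratio of 2.13. C4b, another complement gene, was higher in 5 of 5 with a median of 3.78. C2, the complement gene next to Cfb, was measured in 1 class and was higher there (log2 3.22). Clic1, an intracellular chloride channel protein on the other side, was below WT in all 11 classes (median -0.68), with 1 past the fold. Ehmt2 and Vars, measured in 3 and 4 classes, had no pair past the fold. Neu1, next to Hspa1b, was measured in 3 classes (median -0.33, from -0.76 to 2.46), with 1 higher past the fold. Lsm2 was measured in 2 classes (median -1.54), with 1 lower past the fold.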
